A study of Mus musculus with 3 samples.

Results

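The genes described here encode the secreted and membrane-bound metalloproteinases that cut the extracellular matrix, and their tissue inhibitors. They were taken by name from the 3 count matrices: 16 matrix metalloproteinases (Mmp genes), 18 Adamts genes, whose products are metalloproteinases with thrombospondin motifs, and the 4 Timp genes, which encode tissue inhibitors of metalloproteinases. All 38 were present in each matrix, among 27040 gene identifiers that the 3 matrices share. The list was drawn up with earlier results of these data known, and Mmp20 is not on it.

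The libraries held single cells from mouse mandibular molars, sorted by fluorescence after enzymatic release of pulp and periodontium, and profiled by droplet 3' sequencing with unique molecular identifiers (UMIs). The first group was Col1a1-GFP; Cxcl12-creER; R26R(tdTomato/+) at postnatal day 25 (P25), from which cells positive for GFP, for tdTomato or for both were taken. The second was Cxcl12-creER; R26R(tdTomato/+) at postnatal day 6 (Cxcl12-creER P6), from which tdTomato-positive cells were taken. The third was Cxcl12-GFP/+ at postnatal day 6 (Cxcl12-GFP P6), from which GFP-positive cells were taken. In both creER groups the recombinase is under the control of the chemokine gene Cxcl12 and acts only after an inducer is given. The time of induction and the number of mice per library could not be read from the labels. Age, reporter and sort gate differ together between P25 and Cxcl12-GFP P6, so they cannot be told apart.

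Each group was 1 library, so no difference below has a replicate error or a test, and each 95% interval given in parentheses reflects counting error alone. After filtering, 5401 cells of P25, 1121 of Cxcl12-creER P6 and 7065 of Cxcl12-GFP P6 were kept, with median depths of 14786, 1462 and 8141 UMIs. Clusters were named from marker genes that exclude the 38 genes, and a level is the class's share of UMIs for a gene, over all UMIs of the shared genes, in the usual unit CPM. UMIs of 3' libraries count transcripts at one end, so levels of different genes were not divided by length. Named classes at P25 were periodontal ligament-like (1399 cells), osteoblast or cementoblast-like (732, below osteoblast-like), pulp-like (633), macrophage-like (285), odontoblast-like (175), connective tissue fibroblast-like (122), dental epithelium-like (107), endothelial-like (88), neutrophil-like (71) and Schwann-like (52). The labels call the sorted cells mesenchymal, and the last 4 of these classes and the macrophage-like cells are not. At Cxcl12-GFP P6 the main classes were Col9a1-high mesenchymal (2171 cells), papilla or pulp-like (1948) and follicle or ligament-like (1625), and at Cxcl12-creER P6 they were follicle or ligament-like (174), dental epithelium-like (130) and connective tissue fibroblast-like (115). Unnamed cells made up 29.5% of P25, 38.9% of Cxcl12-creER P6 and 16.1% of Cxcl12-GFP P6. P25 and Cxcl12-creER P6 had 5 barcodes in common, and P25 and Cxcl12-GFP P6 had 1.

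Matrix metalloproteinases are made as inactive precursors and are divided by substrate and anchorage into collagenases, gelatinases, stromelysins and membrane-type enzymes. Adamts enzymes trim procollagens and cut large proteoglycans. Tissue inhibitors bind the active site of these enzymes, and TIMP3 stays attached to the matrix. In the tooth these proteins act in ligament collagen turnover, in the resorption of bone and roots, and in the removal of enamel and dentine matrix proteins as they mineralise.

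Of the 38 genes, 5 lie in a single run on chromosome 9 (chr9:7272514-7568485, GRCm38, 296 kb): Mmp13, Mmp12, Mmp3, Mmp10 and Mmp8, with Mmp1b as the only other protein-coding gene in the span. They encode a collagenase, a macrophage elastase, 2 stromelysins and the neutrophil collagenase. The 150 bases before an annotated start of each gene in RefSeq (GRCm38.p6, all on the plus strand) are shown. Among the 24 member genes with a RefSeq promoter, this run holds all 4 with an AP-1 motif in that stretch.
Mmp13, chr9:7272364-7272513: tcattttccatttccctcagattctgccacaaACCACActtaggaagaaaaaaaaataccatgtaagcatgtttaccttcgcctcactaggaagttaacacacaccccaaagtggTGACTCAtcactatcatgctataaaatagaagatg
Mmp12, second start, chr9:7347224-7347373: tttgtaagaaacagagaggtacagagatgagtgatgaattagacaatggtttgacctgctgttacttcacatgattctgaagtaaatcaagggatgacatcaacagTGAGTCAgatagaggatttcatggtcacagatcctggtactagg
Mmp3, chr9:7445672-7445821: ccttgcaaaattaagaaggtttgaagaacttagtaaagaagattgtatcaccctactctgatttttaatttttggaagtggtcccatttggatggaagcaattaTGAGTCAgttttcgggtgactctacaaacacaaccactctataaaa
Mmp10, chr9:7502192-7502341: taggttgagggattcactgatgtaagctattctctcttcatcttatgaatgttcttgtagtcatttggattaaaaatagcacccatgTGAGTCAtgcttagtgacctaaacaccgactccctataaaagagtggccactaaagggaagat
Mmp8, chr9:7558279-7558428: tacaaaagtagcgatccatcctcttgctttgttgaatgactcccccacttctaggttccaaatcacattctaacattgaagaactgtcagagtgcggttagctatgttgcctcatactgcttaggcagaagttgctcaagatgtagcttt
Capitals mark matches to the AP-1 motif (TGANTCA, which reads the same on both strands) and, in Mmp13, the RUNX core (ACCACA or its reverse complement). The AP-1 match began 35 bases before the start in Mmp13, 46 in Mmp3 and 63 in Mmp10, and the RUNX match of Mmp13 began 118 bases before it. In Mmp12 the AP-1 match began 44 bases before the second start. The first Mmp12 start, with chr9:7344247-7344396 before it, had no match to either motif and is not shown. RefSeq promoters, 26 in all, were found for 24 of the 38 genes, and a gene was counted where any of its promoters matched. Over the 250 bases before the start, the AP-1 motif was in 4 of these 24 and in 6.75% of all 32851 promoters, and the RUNX core was in 3 of them (Mmp13, Mmp14 and Mmp23) and in 14.0% of all. A match describes letters and not a bound site. The neighbours on this run did not share a cell type in these libraries, as the levels below show.

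A gene is described by level where it reached 10 CPM from 20 UMIs in a class of at least 50 cells, which 31 of the 38 did: 13 of 16 Mmp, 15 of 18 Adamts and 3 of 4 Timp genes. The other 7 were Mmp17, Mmp24, Mmp28, Adamts6, Adamts8, Adamts16 and Timp4. The highest of their 147 levels was Adamts6 at 14.2 CPM, from 3 UMIs, in Cxcl12-creER P6 osteoblast-like cells. Of the 38 genes, 12 overlap another protein-coding gene in GENCODE, 11 of them on the opposite strand, among them Timp1 with Syn1 and Timp3 with Syn3. The strand setting of the counting is not given in the sources used here.

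**Figure D1:**
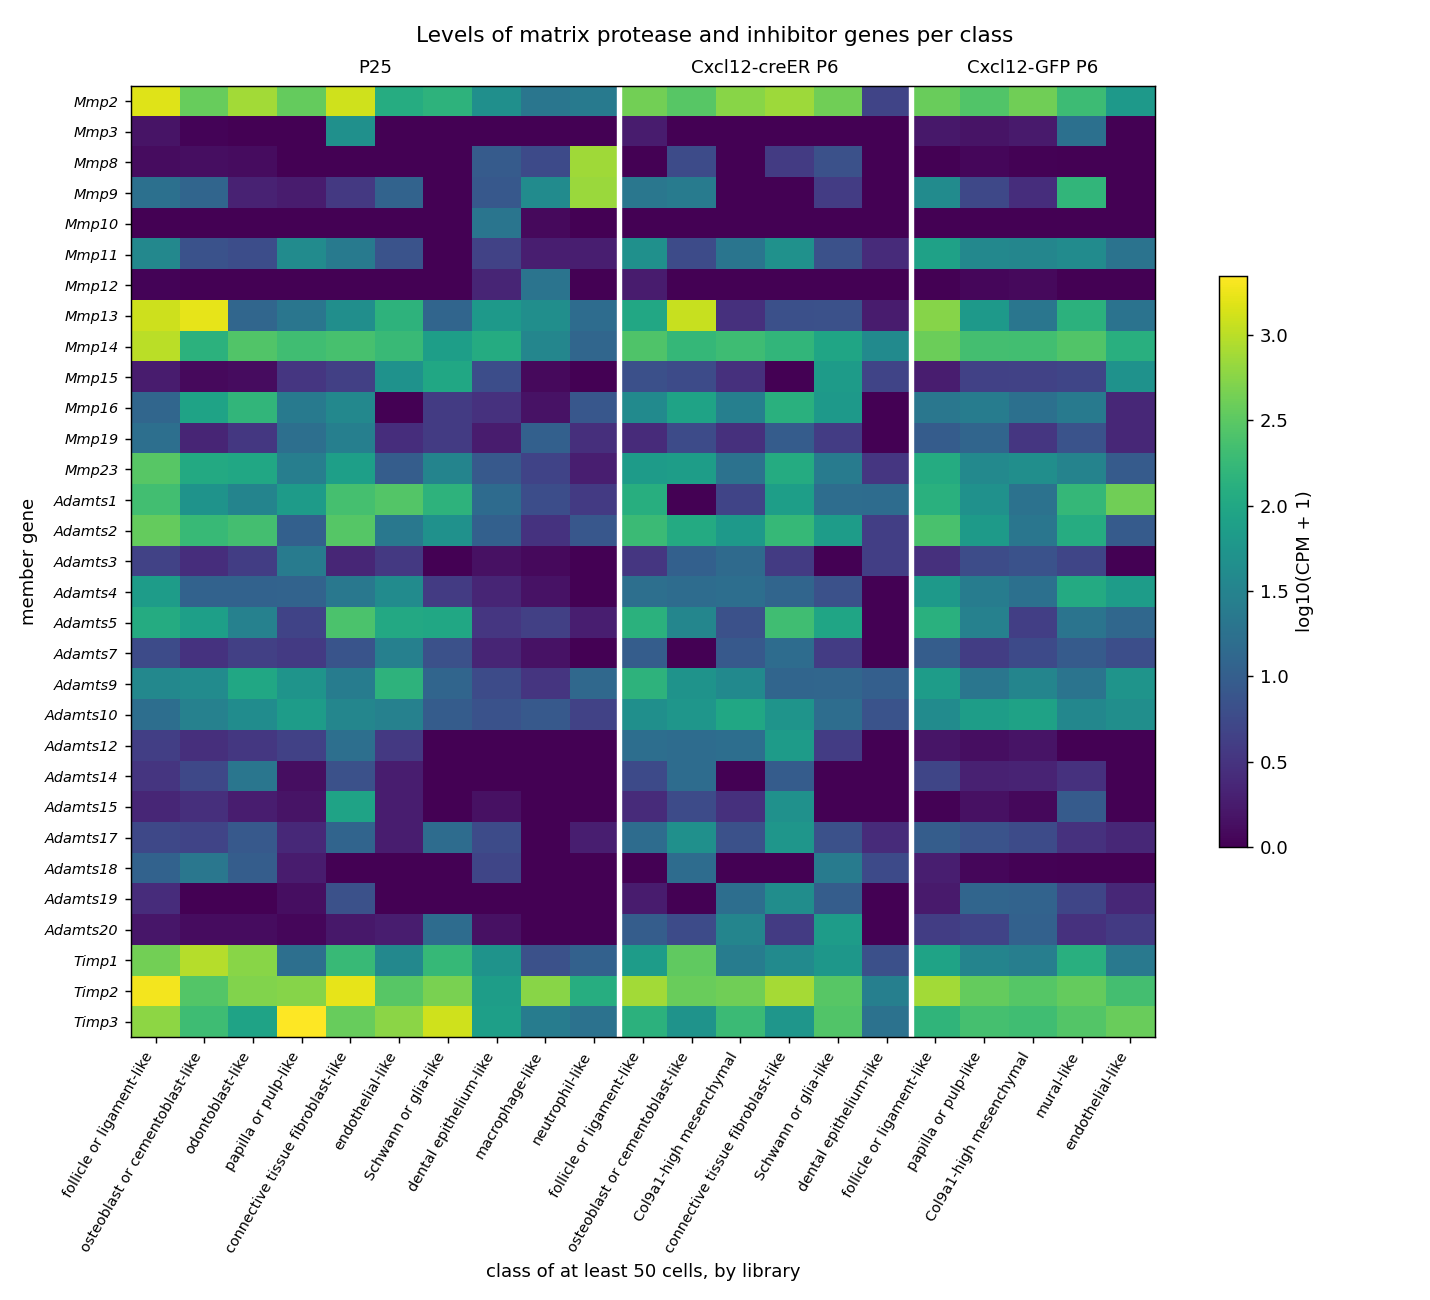
Levels of the 31 described genes, as log10(CPM + 1), in every class of at least 50 cells, with P25 on the left, Cxcl12-creER P6 in the middle and Cxcl12-GFP P6 on the right. Mmp2, Mmp14, Timp2 and Timp3 were found in most mesenchymal classes, while Mmp8, Mmp3, Mmp12 and Mmp10 each passed 10 CPM in a single P25 class.

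Among P25 classes of at least 50 cells, Mmp13 (chr9:7272514-7283331), the main fibrillar collagenase of the mouse, was highest in osteoblast-like and ligament-like cells. At P25 it reached 1678 CPM (1657 to 1699) in osteoblast-like and 1230 CPM (1216 to 1244) in ligament-like cells. In pulp-like cells it stood at 19.8 CPM and in odontoblast-like cells at 11.9 CPM, against 14.3 CPM in neutrophil-like and 11.4 CPM in Schwann-like cells. Thinned to 1000 UMIs per cell, 43.0% of ligament-like cells, 2.21% of pulp-like cells and 5.63% of neutrophil-like cells had a Mmp13 UMI. Without thinning these shares were 81.9%, 15.5% and 21.1%, at median depths of 16886, 9445 and 11267 UMIs. Mmp13 in P25 pulp-like cells thus lay near its level in neutrophil-like cells, and whether it is background was not tested. In endothelial-like cells 143 of 167 Mmp13 UMIs came from 1 cell.

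Within the osteoblast-like class Mmp13 was split. Cluster 5 (290 cells), led by Spp1, Mepe and Dmp1, held 5095 CPM (5030 to 5161). Cluster 10 (219 cells) held 120 CPM and cluster 13 (140 cells) 19.4 CPM, and both were led by Bglap, Col2a1 and Car3. Bglap, Col2a1, Car3 and Mmp13 itself were also among the leading genes of cluster 5. Cluster 5 contained 96.5% of the Mmp13 UMIs of the class. Timp1, a secreted inhibitor with little action on membrane-type enzymes, was highest in the same cluster, at 2284 CPM, against 295 CPM in cluster 10 and 393 CPM in cluster 13. Timp3 had 538 CPM in cluster 5, against 58.4 and 21.0 CPM in clusters 10 and 13. Mmp2 varied less between these clusters, with 355 CPM in cluster 5, 312 CPM in cluster 10 and 499 CPM in cluster 13. The fourth cluster of the class, cluster 21 (83 cells), had a median of 1685 UMIs and pulp genes among its leaders, and held 257 CPM of Mmp13.

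Unnamed P25 cells added 30297 of the 86449 Mmp13 UMIs of the library. Cluster 4 (335 cells), whose leading genes include haemoglobin genes, Ptx3 and Tnfsf11, held 3491 CPM (3437 to 3545) with a Mmp13 UMI in 96.4% of its cells. The 29 bone marrow stromal-like cells, marked by Adipoq and high Cxcl12, held 1612 CPM. The ligament-like clusters lay between 939 and 1550 CPM, below cluster 4, and of them the highest alone reached into the interval of the bone marrow stromal-like cells, which ran down to 1469 CPM.

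At Cxcl12-GFP P6 the clusters of the follicle or ligament-like class differed widely in Mmp13. Cluster 10 (285 cells; Lpl, Ostn, Bglap) held 1326 CPM, cluster 4 (592 cells; Adamts5, Acta2) 786 CPM and cluster 1 (748 cells; Moxd1, Tnmd) 29.4 CPM. In papilla or pulp-like cells the level was 62.8 CPM, and 79.8% of those UMIs lay in cluster 8 (481 cells), which carries the apical papilla markers Smoc2, Sfrp2, Lhx6 and Pax9, at 225 CPM. The dental follicle list scored second in cluster 8, at 1.37 against 1.81 for the apical papilla list. The follicle marker Sfrp4 was among its leading genes. The other papilla clusters, 0 and 7, held 16.1 and 16.8 CPM, against 17.6 CPM in endothelial-like cells. At Cxcl12-creER P6, osteoblast-like cells held 1179 CPM (1037 to 1335), from 249 UMIs, and follicle or ligament-like cells 100 CPM, of which 67 of 127 UMIs came from 1 cell.

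**Figure D2:**
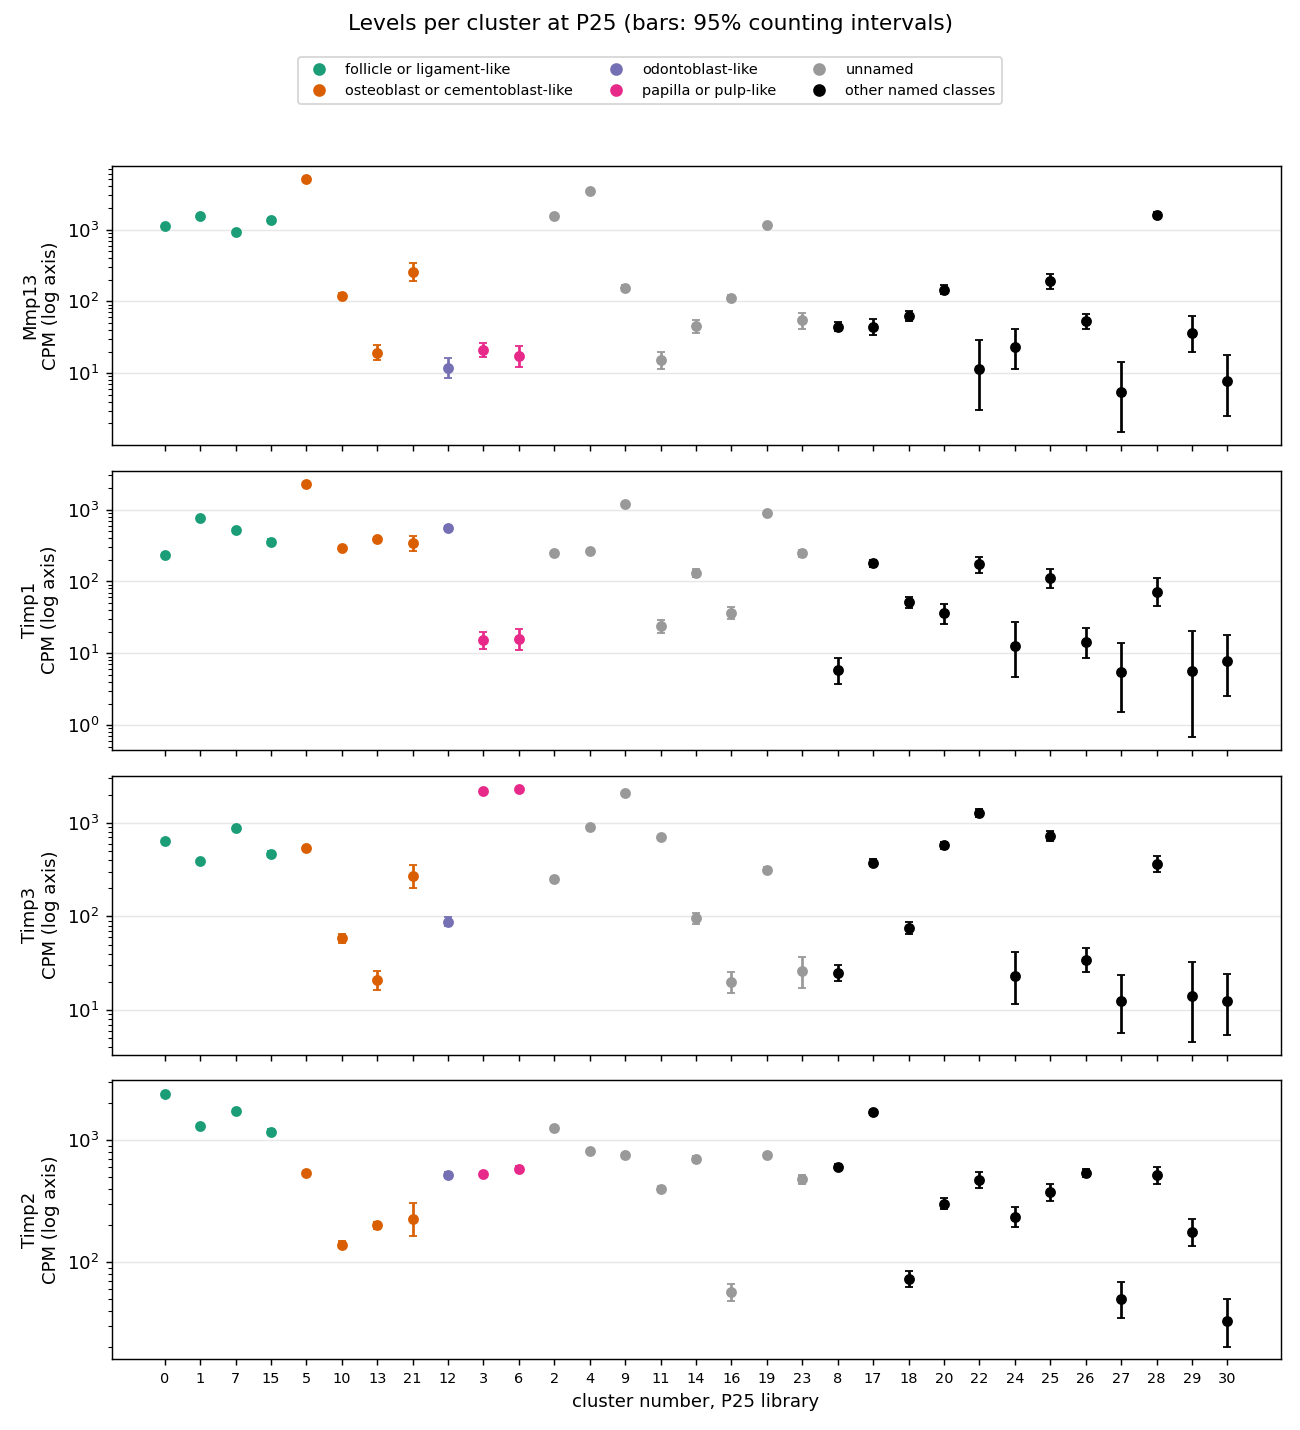
Levels of Mmp13, Timp1, Timp3 and Timp2 in every P25 cluster (CPM, log axes; points are clusters, bars 95% counting intervals, colours the class). Mmp13 and Timp1 peak together in osteoblast-like cluster 5 at 5095 and 2284 CPM, and Timp3 peaks in the pulp-like clusters 3 and 6 at 2192 and 2275 CPM.

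Mmp2 (chr8:92827291-92853420), gelatinase A, had 1517 CPM (1502 to 1532) in P25 ligament-like cells, 1280 CPM in connective tissue fibroblast-like cells and 764 CPM in odontoblast-like cells, and was seen in 99.4% of ligament-like cells. Mmp9 (chr2:164940780-164955850), gelatinase B, had its highest P25 levels in osteoclast-like and neutrophil-like cells. The 38 osteoclast-like cells of P25 held 4082 CPM (3974 to 4192) and neutrophil-like cells 700 CPM, while pulp-like cells held 0.805 CPM. Neutrophil-like cluster 24 (Retnlg, Ltf) had 1574 CPM and cluster 30 (Chil3, Fcnb) 54.5 CPM. At Cxcl12-creER P6 an unnamed cluster of 17 cells held 6872 CPM of Mmp9 and 6837 CPM of Mmp13, with both genes in all 17 cells. Its leading genes were Mmp9, Spp1, Pdzrn4 and Mmp13. At Cxcl12-GFP P6 mural-like cells had 160 CPM of Mmp9, with 23 of 79 UMIs from 1 cell, and follicle or ligament-like cells 40.7 CPM, with 93.3 CPM in their cluster 10.

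The neighbours of Mmp13 on chromosome 9 had their highest P25 levels in other classes. Mmp8, neutrophil collagenase, had 746 CPM in P25 neutrophil-like cells and 1740 CPM in their cluster 24, against 6.03 CPM in unnamed cluster 16, which is led by the granule genes Elane, Prtn3 and Mpo of immature neutrophils. Mmp12, the macrophage elastase, had 206 CPM in macrophage-like cluster 29 (28 cells, led by antigen presentation genes) and 1.52 CPM in cluster 8 (257 cells), and 40 of the 73 UMIs in cluster 29 came from 1 cell. Mmp3, stromelysin-1, had 46.8 CPM (36.7 to 59.0) in P25 connective tissue fibroblast-like cells, in 20.5% of them, and 0.484 CPM in ligament-like cells. Mmp10, stromelysin-2, reached 19.3 CPM in dental epithelium-like cells, but all 48 UMIs came from 1 cell.

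Among membrane-type enzymes, Mmp14, which activates pro-MMP2 together with TIMP2, had 989 CPM (976 to 1001) in P25 ligament-like and 387 CPM in osteoclast-like cells. Mmp15 marked Schwann-like and endothelial-like cells at both ages. It had 96.7 CPM (66.9 to 135) in Schwann-like cells of P25 and 67.1 CPM (42.5 to 101) in those of Cxcl12-creER P6, and 49.9 CPM and 50.1 CPM in endothelial-like cells of P25 and Cxcl12-GFP P6. Those counting intervals overlap between ages. Among P25 classes Mmp16 was highest in matrix-forming hard-tissue cells, with 157 CPM (145 to 171) in odontoblast-like and 85.7 CPM in osteoblast-like cells, against 11.8 CPM in ligament-like cells. At Cxcl12-creER P6 it was highest in connective tissue fibroblast-like cells, at 133 CPM, against 85.2 CPM in osteoblast-like cells. At Cxcl12-GFP P6 it was highest in papilla or pulp-like cells, at 24.6 CPM. Mmp11, stromelysin-3, had 80.6 CPM in Cxcl12-GFP P6 follicle or ligament-like cells, its highest level among classes of at least 50 cells. Mmp23 reached 297 CPM in P25 ligament-like cells, and Mmp19 stayed at or below 26.7 CPM in every class of at least 50 cells.

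Adamts2, Adamts3 and Adamts14 encode the procollagen N-proteinases, which remove the amino-terminal propeptides of fibrillar collagens. Adamts2 had 359 CPM in P25 ligament-like, 220 CPM in odontoblast-like and 180 CPM in osteoblast-like cells, but 9.66 CPM in pulp-like cells, against 7.16 CPM in neutrophil-like cells. Adamts3 had its highest level in P25 pulp-like cells, 23.5 CPM (19.9 to 27.6), against 3.59 CPM in the ligament. Adamts14 had 19.9 CPM in odontoblast-like cells and 122 CPM (103 to 144) in unnamed cluster 23 (52 cells), in 88.5% of its cells. That cluster was led by the osteocyte genes Dmp1, Dkk1, Mepe, Phex and Sost.

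The proteoglycan-cutting Adamts genes were spread over vascular, ligament-like, fibroblast-like and Schwann-like cells. Adamts1 had 281 CPM (251 to 313) in endothelial-like cells of P25 and 414 CPM (369 to 463) in those of Cxcl12-GFP P6, with 523 CPM in the 44 mural-like cells of P25. Adamts4, an aggrecanase, had 69.6 CPM in P25 ligament-like cells and 111 CPM in Cxcl12-GFP P6 mural-like cells. Adamts5, the other main aggrecanase, had 251 CPM (227 to 278) in connective tissue fibroblast-like cells of P25 and 209 CPM (164 to 262) in those of Cxcl12-creER P6. Adamts15 was found in the same class, with 86.5 CPM at P25 and 47.9 CPM, from 17 UMIs, at Cxcl12-creER P6. Adamts9 had 143 CPM in P25 endothelial-like cells, 96.1 CPM in odontoblast-like cells and 143 CPM in Cxcl12-creER P6 follicle or ligament-like cells. Adamts20 had 70.0 CPM, from 24 UMIs of which 10 came from 1 cell, in Cxcl12-creER P6 Schwann-like cells, and 14.2 CPM, from 5 UMIs, in those of P25.

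Adamts10, linked to fibrillin microfibrils, had 70.4 CPM in P25 pulp-like cells and, in Col9a1-high cells, 98.7 CPM at Cxcl12-creER P6 and 84.4 CPM at Cxcl12-GFP P6. Adamts18 had 20.1 CPM in P25 osteoblast-like cells and 33.5 CPM in their cluster 13. Adamts7 peaked at 28.0 CPM in P25 endothelial-like cells. Adamts12, Adamts17 and Adamts19 had their highest levels in the connective tissue fibroblast-like class of Cxcl12-creER P6, at 67.7, 56.4 and 42.3 CPM. These came from 24, 20 and 15 UMIs, and 1 cell gave 9 of the UMIs of Adamts17 and 9 of those of Adamts19.

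The inhibitors overlapped in the dental mesenchyme and peaked in different classes. Timp3 (chr10:86300372-86349506) was the leading inhibitor of the mature pulp, with 2221 CPM (2184 to 2258) and a UMI in 100% of the 633 cells, and of Schwann-like cells, with 1268 CPM. In odontoblast-like cells it had 87.6 CPM and in neutrophil-like cells 17.0 CPM. Timp1 (chrX:20870166-20874735) was high in hard-tissue cells, with 952 CPM in osteoblast-like, 563 CPM in odontoblast-like and 15.5 CPM in pulp-like cells. Timp2 (chr11:118301069-118355740, minus strand) was highest in the ligament at 1917 CPM (1900 to 1934), where Timp3 had 592 CPM and Timp1 428 CPM, and at 571 CPM it was the leading member gene of macrophage-like cells. Unnamed cluster 9 (253 cells), which carries Fgf9, Pthlh, Ibsp and Dmp1 among its leading genes, had both Timp3 and Timp1 high, at 2061 and 1191 CPM.

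Timp transcripts outnumbered Mmp transcripts in P25 pulp-like cells, where Timp genes summed to 2784 CPM and Mmp genes to 692 CPM. In ligament-like cells Timp genes summed to 2937 CPM and Mmp genes to 4114 CPM. There were 4.02 Timp UMIs per Mmp UMI (3.89 to 4.16) in P25 pulp-like cells, 5.10 in Schwann-like and 3.40 in macrophage-like cells. The figure was 0.714 in ligament-like, 0.598 in osteoblast-like, 0.893 in odontoblast-like and 0.0970 in neutrophil-like cells of P25. Schwann-like cells of Cxcl12-creER P6 had 0.920 (0.762 to 1.11), with Mmp2 as their leading member gene. Their 1 cluster (64 cells, median 1456.5 UMIs) also had the pulp and papilla markers Coch and Tac1 among its leading genes. The part of this in the ratio was not tested. Papilla or pulp-like cells of Cxcl12-GFP P6 had 0.926 and follicle or ligament-like cells 0.627. The highest summed level of the member genes was 7892 CPM, in P25 ligament-like cells.

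**Figure D3:**
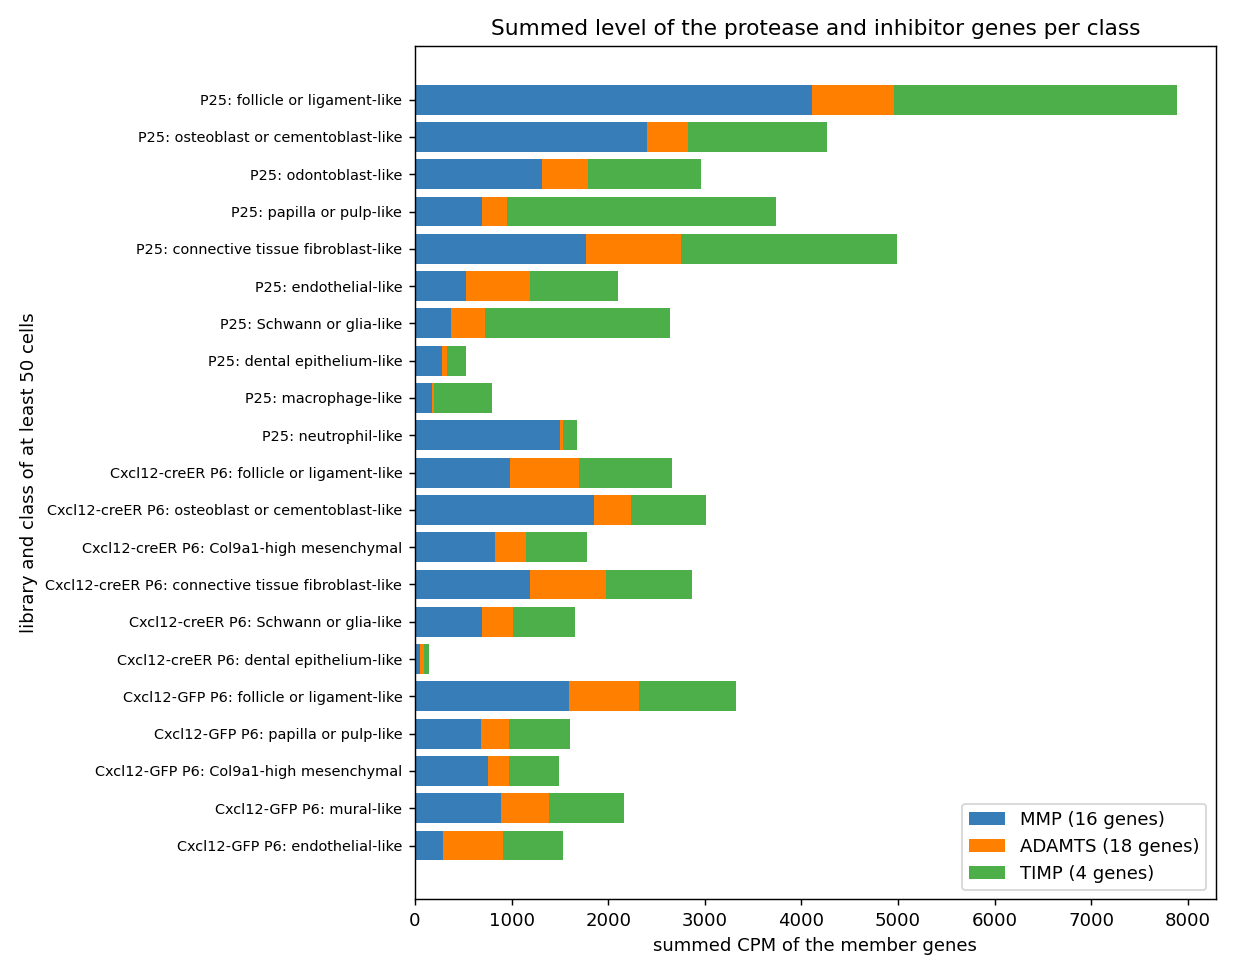
Summed CPM of the listed Mmp (without Mmp20), Adamts and Timp genes in each class of at least 50 cells. P25 is at the top, then Cxcl12-creER P6, then Cxcl12-GFP P6. In P25 pulp-like, Schwann-like and macrophage-like cells Timp transcripts fill most of the bar, at 4.02, 5.10 and 3.40 Timp UMIs per Mmp UMI.

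Ligament-like cells were set against pulp-like cells of P25 as the soft tissues outside and inside the tooth. A gene was called 2-fold apart where its ratio reached 2 either way and its higher level was 10 CPM or more, from 20 UMIs or more. Of 19 member genes measured, 12 were higher in the ligament and 3 lower, with a median log2 ratio of 2.10. Over all 9001 genes measured, 9.31% were higher, 18.5% lower and 27.8% apart, with a median of -0.32. Mmp13 was higher in the ligament at 1230 against 19.8 CPM, Adamts2 at 359 against 9.66 CPM, Timp1 at 428 against 15.5 CPM and Adamts5 at 113 against 3.70 CPM. In neutrophil-like cells Mmp13 had 14.3, Adamts2 7.16, Timp1 9.85 and Adamts5 0.895 CPM. The pulp levels of Mmp13, Adamts2 and Timp1 thus lie near those of neutrophil-like cells, and no fold over P25 pulp-like cells is given for these 3 genes. Timp1 was lower still in macrophage-like cells, at 5.81 CPM. Mmp14 (4.79-fold), Mmp2 (4.29-fold) and Timp2 (3.51-fold) were higher too, as were Mmp9, Mmp23, Adamts1, Adamts4 and Adamts18. The 3 lower genes were Adamts3 (ratio 0.153), Adamts10 (0.216) and Timp3 (0.266). Of 14 measured substrate genes 8 were higher and 1 lower, Col1a1 at 44258 against 1264 CPM and the aggrecan gene Acan at 53.1 against 0.966 CPM. Of 25 measured genes of other pericellular proteolysis systems 12 were higher and 4 lower, led by the serine protease gene Htra1 at 1837 against 10.5 CPM and the urokinase receptor gene Plaur at 85.3 against 0.966 CPM. Of the dissociation-response genes 10 of 14 were lower, with Jun at 1579 against 5550 CPM, and their part in these ratios was not tested.

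More member genes were lower than higher in osteoblast-like cells of P25 set against ligament-like cells. Of 18 measured, 2 were higher and 9 lower, with a median log2 ratio of -1.24, against 4.79% higher, 15.2% lower, 19.9% apart and a median of -0.24 over all 7958 genes. Mmp16 was 7.25-fold higher (6.37 to 8.26) and Timp1 2.22-fold higher. Without cluster 5 Timp1 turned lower, at a log2 ratio of -0.37 against 1.15 with it. Mmp19 (ratio 0.0786), Mmp14 (0.142), Timp2 (0.147), Adamts4 (0.150) and Mmp11 (0.170) had the lowest ratios, and Adamts1, Mmp2, Timp3 and Mmp23 were lower as well. Mmp13 stayed within 2-fold, at 1678 against 1230 CPM, but without cluster 5 it was lower, at 86.0 against 1230 CPM (log2 ratio -3.84). Adamts2 just missed the 2-fold limit, at 180 against 359 CPM. Of 14 substrates 1 was higher and 8 lower, where Col3a1 had 653 against 31797 CPM and Col2a1 2207 against 13.8 CPM. Of 25 other proteolysis genes 5 were higher and 12 lower, where the collagen-degrading cathepsin gene Ctsk had 225 against 1085 CPM and the convertase gene Pcsk6 115 against 12.3 CPM. Of 14 dissociation-response genes 2 were higher and 1 lower.

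Odontoblast-like cells, which form dentine, differed from pulp-like cells of P25 in both directions. Of 18 measured genes 7 were higher and 5 lower, with a median log2 ratio of 0.18, against 8.16% higher, 25.4% lower, 33.6% apart and a median of -0.44 over all 8911 genes. The 3 widest ratios above 1 were those of Timp1, at 563 against 15.5 CPM, Adamts2, at 220 against 9.66 CPM, and Adamts14, whose 72 against 2 UMIs gave a ratio of 61.8 with an interval of 16.5 to 520. Adamts5, Mmp16, Mmp23 and Mmp2 were also higher, Adamts5 by 7.68-fold and Mmp2 by 2.16-fold. Timp3 was lower at a ratio of 0.0394, and Mmp11, Adamts3, Mmp19 and Adamts1 were also lower. Timp2 was close to even, at 520 against 546 CPM. Here 12 of 14 dissociation-response genes were lower in odontoblast-like cells, and their part was not tested.

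At Cxcl12-GFP P6 the follicle or ligament-like cells exceeded papilla or pulp-like cells in 11 of 18 measured genes and were lower in 1, with a median log2 ratio of 1.28. Over all 8999 genes 7.01% were higher, 8.27% lower and 15.3% apart, with a median of -0.10. Mmp9 was 9.38-fold higher, Mmp13 8.84-fold, Adamts5 4.67-fold, Adamts2 3.64-fold and Adamts9 3.56-fold, while Mmp2 (1.38), Mmp14 (1.81) and Timp3 (0.673) stayed within 2-fold. The lower gene was Adamts19, at 0.728 against 11.2 CPM. Timp3 stood at 155 CPM in follicle or ligament-like cells and 230 CPM in papilla or pulp-like cells. Of 14 dissociation-response genes 13 were measured and 1, Hspa1a, was lower, at 50.6 against 119 CPM. Without the apical papilla cluster the log2 ratios of Mmp13, Adamts2 and Adamts5 were 5.09, 3.57 and 5.15, in place of 3.14, 1.86 and 2.22. At Leiden resolution 0.5, where the classes are drawn otherwise, the log2 ratio of Mmp13 was -0.15.

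Between the ages, Timp3 had the highest ratio of the measured members in the pulp. It had 2221 CPM in P25 pulp-like cells, against 230 CPM (222 to 238) in papilla or pulp-like cells of Cxcl12-GFP P6, a ratio of 9.65 (9.29 to 10.0). Both P25 pulp clusters were near the same level, 2192 and 2275 CPM, and the 3 papilla clusters of Cxcl12-GFP P6 lay between 77.5 and 282 CPM, so the clusters of the libraries did not overlap. Thinned to 1000 UMIs, 82.8% of P25 pulp-like cells (79.6 to 85.6) and 21.0% of those of Cxcl12-GFP P6 (19.2 to 22.9) had a Timp3 UMI, and unthinned 100% and 69.4%. In endothelial-like cells the level was 573 CPM at P25 and 376 CPM at Cxcl12-GFP P6.

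In all, 3 of 18 member genes measured in the pulp were higher at P25 and 5 lower, with a median log2 ratio of -0.05. Of all 9216 genes 11.6% were higher, 11.5% lower and 23.1% apart, with a median of -0.15. Adamts3 (4.67-fold) and Adamts9 (2.65-fold) were higher beside Timp3. Adamts19 (2 against 162 UMIs), Adamts5 (ratio 0.131), Adamts2 (0.145), Mmp13 (0.316) and Adamts4 (0.425) were lower, with the P25 pulp levels of Mmp13 and Adamts2 near those of neutrophil-like cells, as above. Timp1 lay at the limit, at 15.5 against 30.9 CPM, with its P25 pulp level also near that of neutrophil-like cells. Mmp2 (1.28), Mmp14 (0.947) and Adamts10 (0.983) were close to even. Without the apical papilla cluster of Cxcl12-GFP P6 the log2 ratio of Mmp13 was 0.28 in place of -1.66. The same step gave -0.01 for Adamts5, in place of -2.93, and -1.08 for Adamts2, in place of -2.79. At P25 both pulp-like clusters were named from coronal pulp markers, whereas at Cxcl12-GFP P6 clusters 0 and 7 were named from these and cluster 8 from apical papilla markers. In cluster 8 the dental follicle list scored second, and the part of follicle cells in these values was not tested. In other proteolysis genes Fap, which encodes a cell-surface serine protease, had 364 against 38.6 CPM. Of the dissociation-response genes 9 of 14 were higher at P25, Jun at 5550 against 1170 CPM, and their part was not tested.

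Ligament-like cells of P25 were set against the Cxcl12-GFP P6 class that joins follicle and ligament markers, and all 3 described inhibitors and Mmp2, Mmp13 and Mmp14 were higher at P25. Of 18 measured genes 8 were higher and 3 lower than in Cxcl12-GFP P6 follicle or ligament-like cells, with a median log2 ratio of 0.81, against 9.89% higher, 19.6% lower, 29.5% apart and a median of -0.37 over all 8809 genes. Timp1 was 4.93-fold higher (428 against 86.8 CPM), Timp3 3.82-fold and Timp2 2.52-fold. Mmp2 was 3.96-fold (3.86 to 4.07), Mmp23 2.64-fold, Mmp14 2.51-fold and Mmp13 2.22-fold higher, and Adamts18 had 10.5 against 0.909 CPM. Mmp9 (ratio 0.392), Adamts10 (0.376) and Mmp11 (0.434) were lower, and Mmp9 turned higher at Leiden resolution 0.5 or with doublets kept, at log2 ratios of 2.31 and 0.55. Of 14 measured substrates 9 were higher and 1 lower, with Col11a1 10.3-fold and Col1a1 4.70-fold higher. Of 25 other proteolysis genes 10 were higher and 2 lower, Htra1 at 1837 against 193 CPM. The 4 P25 clusters were named from ligament markers, whereas at Cxcl12-GFP P6 clusters 1 and 4 were named from follicle markers and cluster 10 from ligament markers. Against cluster 10 alone, P25 ligament-like cells had 1230 against 1326 CPM of Mmp13, 989 against 558 CPM of Mmp14 and 1517 against 654 CPM of Mmp2. Timp1 had 428 against 121 CPM, Timp2 1917 against 822 CPM, Timp3 592 against 198 CPM and Mmp23 297 against 139 CPM. Mmp13 was thus not higher at P25 than in this P6 cluster, and Mmp14 was under 2-fold apart. Cluster 10 also had the osteoblast markers Bglap and Bglap2 among its leading genes. The osteoblast or cementoblast list scored second in it, at 2.21 against 2.95 for the ligament list. The part of such cells in these values was not tested. Without the largest cluster of each class 6 member genes were apart in place of 11, with no share over all genes given for that step. The log2 ratio of Mmp13 was then 0.49 in place of 1.15. Of the dissociation-response genes 2 of 14 were higher and 3 lower.

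Among the Adamts-like genes, whose products lack a protease domain, Adamtsl3 had 25.9 CPM in P25 pulp-like cells, against 4.41 CPM in papilla or pulp-like cells of Cxcl12-GFP P6. Ligament-like cells of P25 had 3.11 CPM of Adamtsl3 and odontoblast-like cells 0.276 CPM. Adamtsl2 had 24.6 CPM in odontoblast-like cells and 0.483 CPM in pulp-like cells. Of the 5 genes of this list 3 were measured between ligament-like and pulp-like cells of P25, with 2 higher and 1 lower.

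**Figure D4:**
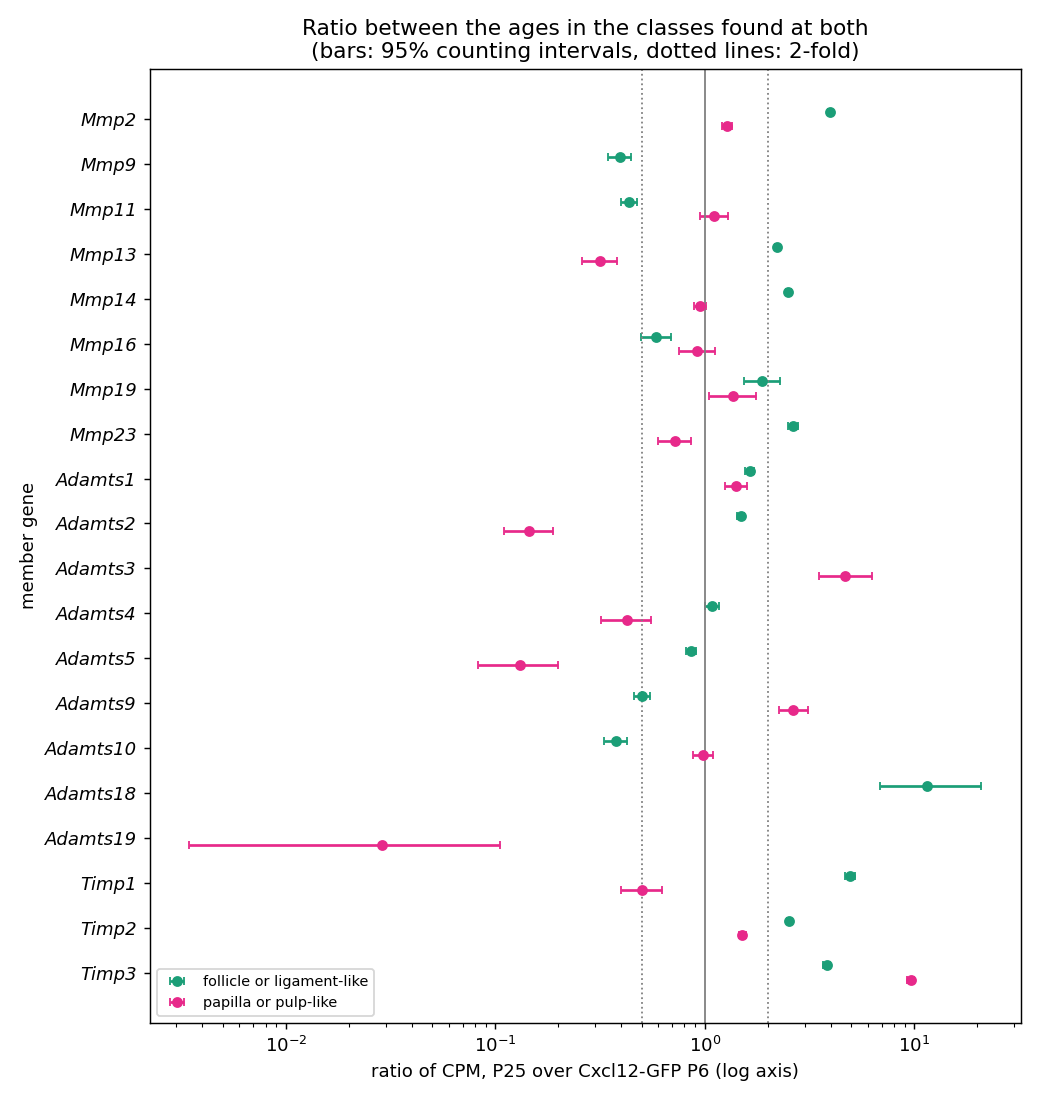
Ratio of CPM, P25 over Cxcl12-GFP P6 (log axis), for each member gene measured in follicle or ligament-like cells (green) or papilla or pulp-like cells (pink), with 95% counting intervals and dotted lines at 2-fold. Timp3 lies to the right in both classes, at 3.82 and 9.65. Mmp13 lies at 2.22 in the ligament and 0.316 in the pulp, where its P25 level is near that of neutrophil-like cells.

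In the follicle or ligament-like classes of the P6 libraries, 3 of 16 measured genes were 2-fold apart. In Cxcl12-creER P6 over Cxcl12-GFP P6, 1 was higher and 2 lower, with a median log2 ratio of -0.23, against 14.4% higher, 9.7% lower, 24.1% apart and a median of -0.11 over all 8533 genes. Adamts9 was 2.02-fold higher (1.72 to 2.37), so its interval crosses the limit. Mmp13 was lower at 100 against 555 CPM, with 67 of its 127 UMIs in Cxcl12-creER P6 from 1 cell, and at Leiden resolution 0.5 its log2 ratio was 1.02 in place of -2.47. Adamts4 was lower at 15.8 against 64.5 CPM, from 20 UMIs in Cxcl12-creER P6. Timp2 (753 against 760 CPM), Adamts1 (126 against 131 CPM) and Adamts5 (135 against 132 CPM) were close to even. At the median depth of 1768 UMIs per cell for Cxcl12-creER P6, against 9860 for Cxcl12-GFP P6, the precision is lower than in the other comparisons. Reporter, sort gate and gene list also differ together between these libraries, so they cannot be told apart. The gene lists held 32286 genes for Cxcl12-creER P6 and 28006 for Cxcl12-GFP P6. Of 13 measured dissociation-response genes 10 were lower, and their part was not tested.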

How the data were processed

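Counts were the UMI counts per gene and cell that the authors deposited, made with Cell Ranger (3.1.0 for P25 and 6.0.0 for Cxcl12-creER P6, per the file headers) on mm10, with Seurat also named in the submitters' processing notes. The sources used here do not say whether reads were counted by strand. The first 8 bases of 21.0% of Cxcl12-GFP P6 barcodes and 82.3% of Cxcl12-creER P6 barcodes occur among those of P25, a difference that lies in every comparison with Cxcl12-GFP P6 and whose part was not tested.

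Cells under 500 genes or over 15% mitochondrial UMIs were left out. Doublets were removed by similarity to simulated doublets, at 0.8% per 1000 cells (256 cells in P25, 10 in Cxcl12-creER P6 and 452 in Cxcl12-GFP P6). Each library was clustered alone with 2000 variable genes, 30 principal components, 15 neighbours and Leiden resolution 1.0 (leidenalg 0.10.2, scikit-learn 1.9.0, Python 3.11.15), with the 38 genes and the other gene lists left out of the variable genes. Clusters were named from 22 marker lists, by at least 3 markers at 1.5-fold over the rest. The scoring rule was adjusted once after the clusters had been seen. The members and lists were chosen with earlier results of these data known.

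UMIs were summed per class and scaled to CPM, with the 27040 shared genes as denominator, with exact Poisson intervals, ratios with exact conditional intervals and shares with Clopper-Pearson intervals, all at 95% and for counting error only. With 1 library per group no test was made. A gene counts as measured in a comparison where its higher side has 10 CPM from 20 UMIs, and is called where it is then 2-fold apart. All members with 10 CPM from 20 UMIs in a class of at least 50 cells are described, and members past 2-fold are named, with at most 6 genes of each other list. The ratio script was tested on simulated counts, where it recovered 98.0% of 200 genes changed 4-fold between ligament-like and pulp-like cells of P25. Positions come from GENCODE on GRCm38 and promoters from RefSeq on GRCm38.p6.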

Additional observations from a re-analysis of the deposited data

Results flagged for a closer look

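The ratio of Mmp13 between the ages lay on opposite sides of 1 in the dental classes found at both. Its log2 ratio of P25 over Cxcl12-GFP P6 was -1.66 in the papilla or pulp-like class and 1.15 in the follicle or ligament-like class. With 1 library per age the difference between these ratios was not tested. The P25 pulp-like level, 19.8 CPM, lies near the 14.3 CPM of neutrophil-like cells, and whether it is background was not tested. At Cxcl12-GFP P6 papilla clusters 0 and 7 had 16.1 and 16.8 CPM, near the 17.6 CPM of endothelial-like cells, so the pulp direction rests on cluster 8 at 225 CPM. It turned under the alternatives given in the next part.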

How the results depend on the processing

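Of 595 alternative values for 72 member log2 ratios, 584 kept their direction, 346 of them within the counting interval and 238 beyond it, and 11 reversed. Of 62 alternative counts of members 2-fold apart, 55 were within 1.5 times the reported count. With no minimum beyond 3 UMIs the counts were 26 for ligament-like over pulp-like cells of P25 (15 reported), 18 for osteoblast-like over ligament-like cells of P25 (11), 22 for follicle or ligament-like over papilla or pulp-like cells of Cxcl12-GFP P6 (12), 17 for the pulp between ages (8), 22 for the ligament between ages (11) and 9 for the P6 libraries (3). Without the largest cluster of each class the ligament count between ages was 6. No share over all genes is given under these alternatives, so these counts are not read as results about the member genes. Timp1 in osteoblast-like over ligament-like cells reversed to -0.92 without the largest cluster of each class and to -0.37 without the cluster highest in Mmp13, an alternative chosen after seeing the data. Mmp13 in the pulp between ages reversed to 0.27 with at least 1000 genes per cell, 3.20 with doublets kept, 0.28 at Leiden resolution 1.5 and 0.28 without the apical papilla cluster, also chosen after seeing the data. With doublets kept, Adamts5 in the pulp between ages reversed to 0.17 and Mmp9 in the ligament between ages to 0.55. At Leiden resolution 0.5, Mmp13 reversed to -0.15 within Cxcl12-GFP P6 and to 1.02 between the P6 libraries, and Mmp9 in the ligament between ages to 2.31. The cause was not tested. The comparison of the P6 libraries was not run with at most 10% mitochondrial UMIs, at least 1000 genes per cell, members among the variable genes or without the largest clusters, since a class then had under 50 cells. No paired analysis was possible because each group was 1 library.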
